A study of Mus musculus with 6 samples.

Results

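The genes described here encode the machinery that copies DNA in S phase, from the proteins that license replication origins to the enzymes that supply nucleotides. A list of 43 such genes was taken, and each was represented by the probe set that is annotated to that gene alone and has the highest mean over the 6 arrays. Of the 43, 42 had such a probe set, among 18194 genes on the array that did. Chaf1a, a subunit of the histone chaperone CAF-1, was without one and was not analysed here. A gene counted as detected if any array gave it a log2 value of 6.55 or more, which is the median over the table. This held for 41 of the listed genes and for 12386 genes in all. Tyms, which encodes thymidylate synthase, stayed under that level on every array on each of its 4 probe sets, with 5.43 as the highest value. A further probe set, shared with a Tyms pseudogene, was not used. Of the 246 values of the 41 detected genes, 0 lay under the level.

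RNA came from 3T3-L1 adipocytes, a mouse preadipocyte line grown to growth arrest and induced with insulin, isobutylmethylxanthine and dexamethasone before treatment. For 5 days, in medium with insulin, the maturing cells of the first experiment were given 20 µM ritonavir (a drug against the HIV protease), 1 µM tenofovir (a drug against the viral reverse transcriptase) or the vehicle, 0.1% ethanol. In the second, cells given ritonavir at 20 µM also received 100 µM of c9,t11-CLA, an isomer of conjugated linoleic acid (CLA), 100 µM of t10,c12-CLA, or DMSO at 0.1%, again for 5 days. A single array per group (1 each) took the pooled RNA of 4 repeats, so no spread between repeats can be given and no difference below carries a test. The arrays' medians lay between 6.54 and 6.56. The difference between the tenofovir and ethanol arrays, the closest pair, had a robust SD of 0.113 over all detected genes, against 0.436 for ritonavir and ethanol. Of 12 adipocyte markers 10 had a probe set, and all 10 reached the detection level on every array, with a median log2 value of 8.54 on the ritonavir array, 13.27 on tenofovir and 13.26 on ethanol, and 12.52, 10.71 and 12.10 on the arrays of ritonavir with c9,t11-CLA, t10,c12-CLA and DMSO. Of 7 macrophage markers, 3 or 4 reached it on any array, and the summed log2 value of the 7 lay between 42.5 and 47.5.

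A cell prepares for S phase by loading the MCM helicase onto origins, with the help of the origin recognition complex, Cdc6 and Cdt1. Kinases and accessory proteins then switch the helicase on, and primase, the replicative polymerases and the sliding clamp PCNA follow it along the opened strands. Many of these genes are transcribed under E2F factors, which the retinoblastoma protein restrains in resting cells. During adipogenesis in culture, 3T3-L1 preadipocytes pass through a short phase of division, known as mitotic clonal expansion, before they leave the cell cycle and fill with lipid.

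The promoters of 6 of these genes are given because they are those of the 8 at least 2-fold lower with ritonavir than with ethanol, as described below, that have a promoter in the table. The sequences are those of RefSeq on GRCm38.p6, written 5′ to 3′ on the gene's strand from 250 bases before to 50 after its annotated start. With the strand named after each, they span chr11:98907901-98908200, plus (Cdc6), chr8:75109259-75109558, plus (Mcm5), chr17:56304063-56304362, plus (Uhrf1, the start of its 2 that holds a match), chr11:117825965-117826264, minus (Tk1), chr12:24708004-24708303, plus (Rrm2) and chr16:18811923-18812222, minus (Cdc45). Capitals mark matches to the E2F letters TTTGGCGC, TTTCCCGC, TTTGCCGC or TTTCGCGC on either strand.
Cdc6: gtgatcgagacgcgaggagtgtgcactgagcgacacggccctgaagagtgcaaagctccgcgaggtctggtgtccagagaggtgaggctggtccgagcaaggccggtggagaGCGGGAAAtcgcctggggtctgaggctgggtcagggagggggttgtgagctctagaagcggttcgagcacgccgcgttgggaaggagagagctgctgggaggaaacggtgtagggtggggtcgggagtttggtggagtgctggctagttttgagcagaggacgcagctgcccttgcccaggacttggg
Mcm5: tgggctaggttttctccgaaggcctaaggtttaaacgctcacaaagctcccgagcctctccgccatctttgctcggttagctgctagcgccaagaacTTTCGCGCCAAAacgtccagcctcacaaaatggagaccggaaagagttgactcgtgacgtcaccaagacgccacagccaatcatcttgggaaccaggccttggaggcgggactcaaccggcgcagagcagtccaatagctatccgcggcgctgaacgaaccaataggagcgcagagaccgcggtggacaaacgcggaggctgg
Uhrf1: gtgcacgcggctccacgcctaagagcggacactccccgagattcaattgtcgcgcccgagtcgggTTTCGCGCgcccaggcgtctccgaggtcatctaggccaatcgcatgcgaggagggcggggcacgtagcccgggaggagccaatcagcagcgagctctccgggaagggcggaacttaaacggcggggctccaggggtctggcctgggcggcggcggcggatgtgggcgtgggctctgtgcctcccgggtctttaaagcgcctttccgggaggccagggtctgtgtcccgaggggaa
Tk1: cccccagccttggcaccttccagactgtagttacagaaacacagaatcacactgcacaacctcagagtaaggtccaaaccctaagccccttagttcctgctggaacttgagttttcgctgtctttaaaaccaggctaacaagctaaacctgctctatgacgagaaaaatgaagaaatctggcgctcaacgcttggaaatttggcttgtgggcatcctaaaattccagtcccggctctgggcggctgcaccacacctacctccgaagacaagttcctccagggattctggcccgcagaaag
Rrm2: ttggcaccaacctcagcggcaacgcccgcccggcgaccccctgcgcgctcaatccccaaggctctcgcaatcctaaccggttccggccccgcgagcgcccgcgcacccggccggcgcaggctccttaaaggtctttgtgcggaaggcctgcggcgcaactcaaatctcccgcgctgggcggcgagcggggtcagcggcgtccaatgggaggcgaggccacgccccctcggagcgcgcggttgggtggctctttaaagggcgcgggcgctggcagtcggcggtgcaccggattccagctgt
Cdc45: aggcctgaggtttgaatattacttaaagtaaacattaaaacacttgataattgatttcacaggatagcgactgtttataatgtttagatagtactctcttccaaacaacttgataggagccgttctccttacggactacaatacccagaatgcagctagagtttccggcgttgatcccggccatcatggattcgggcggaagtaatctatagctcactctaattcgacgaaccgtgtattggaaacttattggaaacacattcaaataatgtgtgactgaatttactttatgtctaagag
Cdc6 holds 1 match, 138 bases upstream of the start, and Uhrf1 1, at 185 bases. Mcm5 holds 2 that overlap by 4 bases, at 153 and 149 bases upstream. In the windows of Tk1, Rrm2 and Cdc45 these letters do not occur. A promoter was available for 33 of the detected replication genes, and 12 of them, 36.4%, hold a match, against 4.54% of 10009 detected genes and 2.605% of 27025 genes in all. Another promoter element, the letters TTTGAA known as the CHR of late cell cycle genes, was searched on both strands and found in 15.2% of the 33 and in 75% of 24 mitotic genes, against 13.9% of detected genes. These shares describe letters in a fixed window and say nothing of the binding of a factor.

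With ritonavir, most replication genes were lower than with ethanol, by unequal amounts, and Tk1 by the most, at -2.53. The median log2 difference of the 41 genes was -0.38, where that of all detected genes was 0.00, and 38 of 41 lay below 0 and 3 above, beside 49.8% and 50.2% of detected genes. At least 2-fold lower were 8 of 41, which is 19.5%, beside 6.39% of all detected genes, and 0 were 2-fold higher, beside 4.56%. The 8 were Tk1, Cdc6, Gmnn, Rrm2, Gins1, Uhrf1, Cdc45 and Mcm5. Mcm5 passed the bound narrowly at -1.07, and Mcm10 and Rfc4 fell short of it at -0.82 and -0.79. Which genes are counted thus depends on the bound. In pooled RNA of a culture, fewer cells of a kind and less RNA per cell cannot be told apart. The adipocyte markers moved in the same comparison, with 8 of 10 at least 2-fold lower and a median difference of -4.03, and so did preadipocyte and fibroblast markers, with 4 of 10 at least 2-fold higher and a median of 0.85; their part in the result was not tested.

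**Figure D1:**
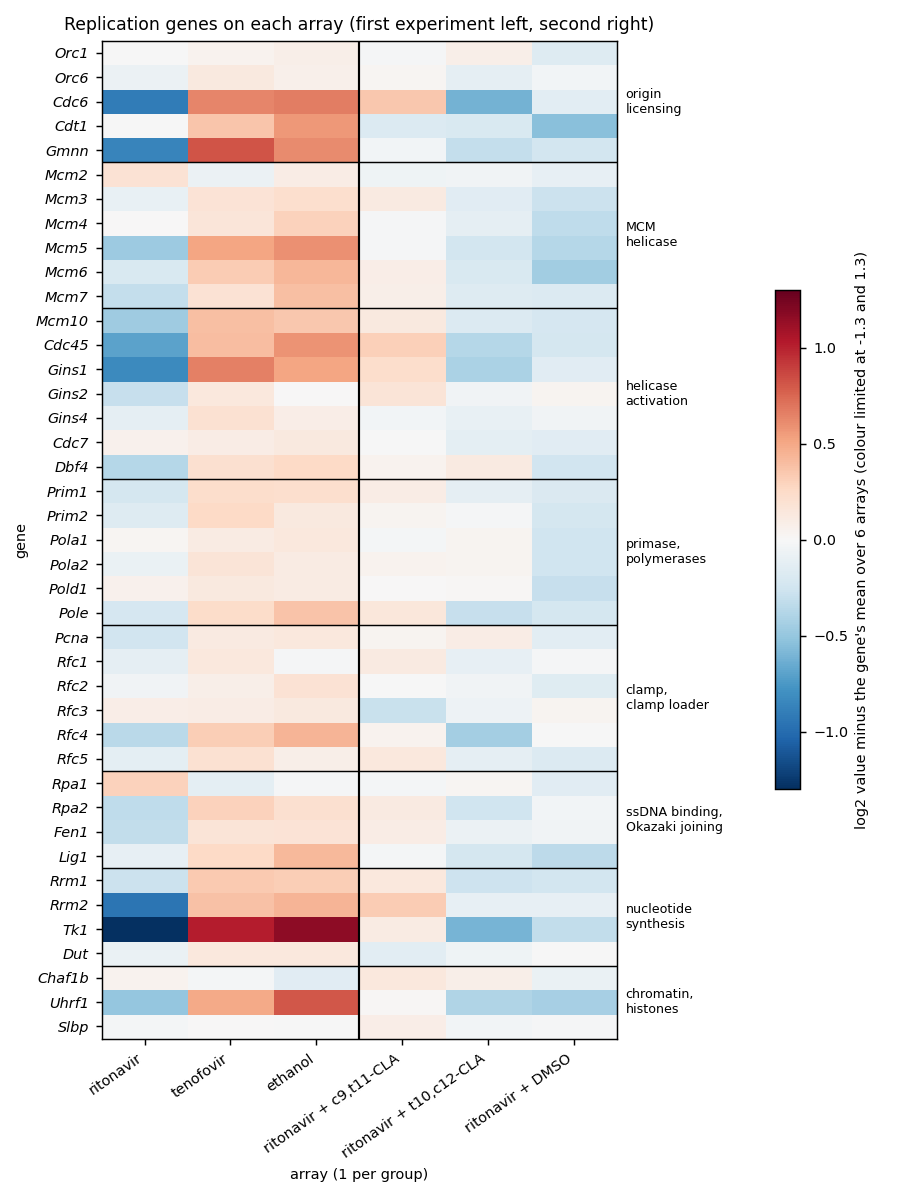
Heat map of the 41 detected replication genes (rows, grouped by role) on the 6 arrays (columns, 1 per group; the vertical line separates the experiments). Colour gives the log2 value minus the gene's own mean over the arrays, limited at -1.3 and 1.3; Tk1, Cdc6, Gmnn, Rrm2 and Gins1 are deepest blue on the ritonavir array, and the tenofovir and ethanol columns are mostly red.

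Nucleotide supply held the largest difference. Tk1, the thymidine kinase that salvages thymidine in S phase, had a log2 value of 8.41 on the ritonavir array, against 10.80 with tenofovir and 10.94 with ethanol. In the second experiment it had 9.88 with c9,t11-CLA, 9.17 with t10,c12-CLA and 9.46 with DMSO. The 4 arrays with ritonavir all lay below the 2 without, as they did for 22.6% of detected genes. The ritonavir array was 5.78-fold lower than ethanol. Rrm2, the S-phase subunit of ribonucleotide reductase, had 10.26 with ritonavir, 11.59 with tenofovir and 11.65 with ethanol, and 11.54, 11.10 and 11.11 with c9,t11-CLA, t10,c12-CLA and DMSO. It was 2.63-fold lower with ritonavir than with ethanol, and its other 2 probe sets differed by -1.52 and -1.41, close to the -1.39 of the probe set used. The large subunit Rrm1 differed less, by -0.59, and Dut, which clears dUTP, by -0.225, though a second probe set of Dut gave 0.11. Rrm2b, the reductase subunit induced by p53 outside S phase, is not in the list and was 0.76 higher.

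Of the genes that license origins, the loader Cdc6 and the Cdt1 inhibitor geminin (Gmnn) were much lower with ritonavir. The listed origin recognition subunits were hardly so on the probe sets used. Cdc6 had 7.16 on the ritonavir array, 8.70 with tenofovir and 8.74 with ethanol, a 2.98-fold lower value with ritonavir than with ethanol. On the arrays of ritonavir with c9,t11-CLA, t10,c12-CLA and DMSO it had 8.42, 7.46 and 7.94, so that the value with t10,c12-CLA was nearest to that of ritonavir alone. Gmnn had 8.32 with ritonavir, 9.99 with tenofovir and 9.79 with ethanol, and 9.14, 8.86 and 8.94 in the second experiment in the same order. It was 2.78-fold lower with ritonavir than with ethanol. Its 4 values with ritonavir all lay below the 2 without, as did those of 22.6% of detected genes. Cdt1, which brings the MCM complex to the origin, had 11.52, 11.88 and 12.09 on the ritonavir, tenofovir and ethanol arrays and 11.34, 11.32 and 10.98 with c9,t11-CLA, t10,c12-CLA and DMSO. Its lowest value was thus that of ritonavir with DMSO and not of ritonavir alone. Orc6 differed from ethanol by -0.14 and Orc1 by -0.09. A second probe set of Orc1 gave -0.56, with 5.98 on the ritonavir array and 6.54 on ethanol, both under the level for detection.

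Among the 6 subunits of the MCM helicase the difference between ritonavir and ethanol ran between -1.07 and 0.09. Mcm5 had 9.93 with ritonavir, 10.92 with tenofovir and 10.997 with ethanol, and 10.39, 10.17 and 10.03 with c9,t11-CLA, t10,c12-CLA and DMSO. A second probe set of Mcm5 gave -1.21. Mcm7 and Mcm6 differed by -0.69 and -0.62, Mcm3 and Mcm4 by -0.32 and -0.30, and Mcm2 by 0.09. The subunits form 1 complex, and their probe sets measured unequal differences. Of 7 genes whose products turn the loaded helicase on, 7 were lower than with ethanol, beside 49.8% of detected genes. Gins1, part of the GINS complex, had 7.84 with ritonavir against 9.33 with tenofovir and 9.18 with ethanol, and Cdc45, the third component of the active helicase, 7.64 against 8.74 and 8.93. In the second experiment Gins1 had 8.90 with c9,t11-CLA, 8.26 with t10,c12-CLA and 8.52 with DMSO, and Cdc45 8.65, 7.97 and 8.11. For both genes the 4 arrays with ritonavir lay below the 2 without, as they did for 22.6% of detected genes. The difference of Cdc45 rests on 1 probe set, since a second differed by only -0.06. Mcm10 differed from ethanol by -0.82 and Dbf4, the activating partner of the kinase Cdc7, by -0.62, while Gins2, Gins4 and Cdc7 differed by -0.30, -0.21 and -0.08.

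**Figure D2:**
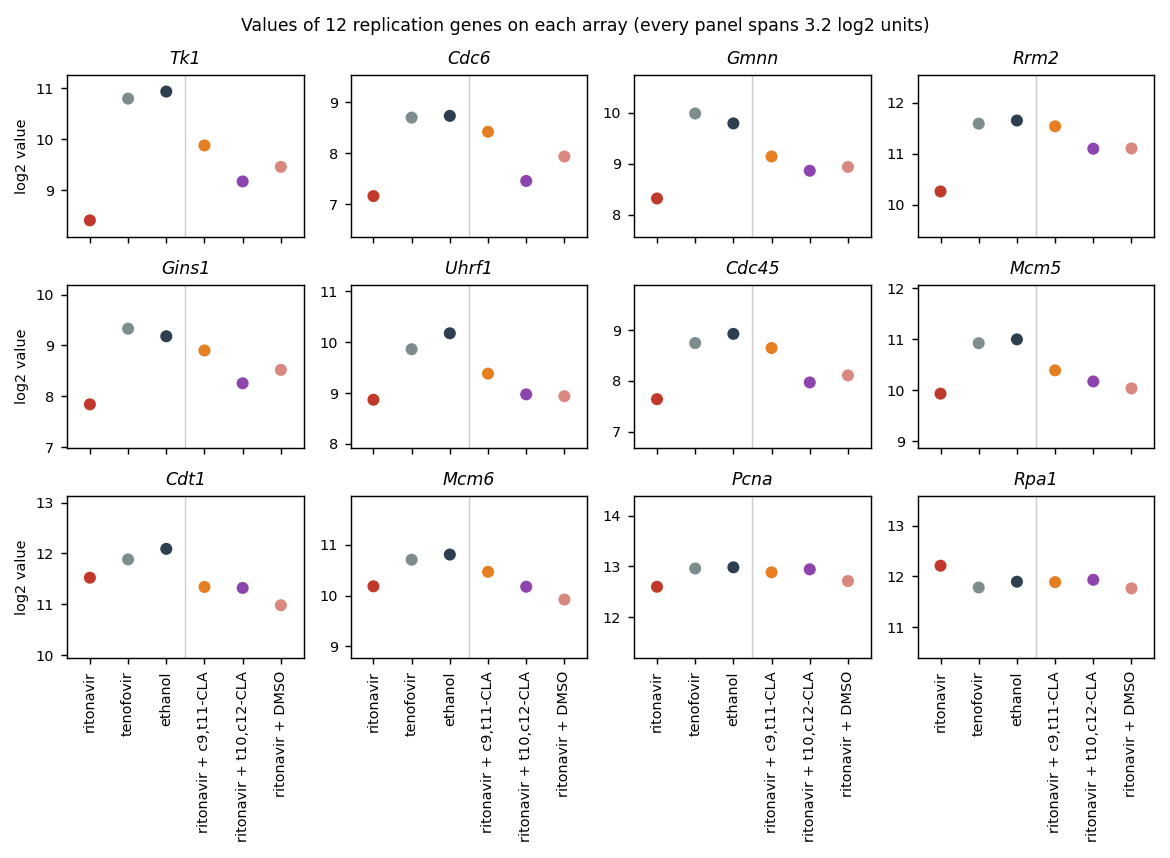
Log2 values of Tk1, Cdc6, Gmnn, Rrm2, Gins1, Uhrf1, Cdc45, Mcm5, Cdt1, Mcm6, Pcna and Rpa1 (panels) on the 6 arrays (1 point per array; the vertical line separates the experiments; the panels span the same number of log2 units). Tk1 has 8.41 with ritonavir and 10.94 with ethanol, whereas Rpa1 is highest with ritonavir, at 12.21.

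At the fork, the genes differed among themselves. Primase and polymerase genes had a median of -0.24 for ritonavir against ethanol, and 0 of 6 were 2-fold lower, beside 6.39% of detected genes. The leading strand polymerase Pole differed by -0.59 and the primase subunits Prim1 and Prim2 by -0.44 and -0.29. Pola2, Pola1 and Pold1 differed by -0.19, -0.11 and -0.06. The clamp Pcna had 12.60 with ritonavir, 12.96 with tenofovir and 12.98 with ethanol, and 12.88, 12.94 and 12.71 with c9,t11-CLA, t10,c12-CLA and DMSO. Of the clamp loader, which opens PCNA to place it on DNA, Rfc4 stood out at -0.79, with -0.78 on its second probe set. On the probe sets used, Rfc2, Rfc5, Rfc1 and Rfc3 lay between -0.24 and -0.05. Further ones of Rfc2 gave 0.19 and 0.11, so its direction depends on the probe set. Those of Rfc1 gave -0.30 and -0.26, and that of Rfc3 -0.13. The 4 genes of single-strand binding and Okazaki fragment joining had a median of -0.51. Lig1, the ligase that joins Okazaki fragments, differed by -0.53, the flap nuclease Fen1 by -0.49 and Rpa2, a subunit of the single-strand binding protein, by -0.53. Rpa1, the large subunit of the same protein, had 12.21 with ritonavir against 11.78 with tenofovir and 11.90 with ethanol, and 11.89, 11.93 and 11.77 in the second experiment. It was highest on the ritonavir array on both of its probe sets, by 0.31 and 0.30 over ethanol.

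Chromatin genes split. Uhrf1, which guides the maintenance DNA methyltransferase to new strands, had 8.87 with ritonavir, 9.86 with tenofovir and 10.17 with ethanol, and 9.38, 8.97 and 8.94 with c9,t11-CLA, t10,c12-CLA and DMSO. It was 2.47-fold lower with ritonavir than with ethanol and 2.36-fold lower with ritonavir and DMSO. A second probe set gave only -0.68 for ritonavir and -0.63 for ritonavir and DMSO. Chaf1b, a CAF-1 subunit, differed by 0.19 and Slbp, which binds the stem-loop of histone messages, by -0.02. A second probe set of Slbp had 6.96 with ritonavir and lay under the level for detection with ethanol.

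A second probe set was available for 26 of the 41 genes, giving 33 further detected probe sets. For ritonavir against ethanol 28 of the 33 had the sign of the one used. Where values of a gene's probe sets were averaged, 4 of 40 detected genes were at least 2-fold lower in place of 8 of 41, and these were Tk1, Cdc6, Gmnn and Rrm2. The average also took in probe sets under the level for detection on every array, among them a probe set of Gins1 and a probe set of Mcm5. For Cdc45 and Uhrf1 the further probe sets were detected. The share of all detected genes was not computed on averaged probe sets.

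With tenofovir the replication genes had values close to those with ethanol. Their median difference was -0.03, between -0.31 for Uhrf1 and 0.19 for Gmnn, and 0 of 41 were 2-fold apart, as was 0% of all detected genes in either direction. Below 0 were 25 of 41 and above it 16, beside 53.6% and 46.3% of detected genes. On the probe sets used the 6 MCM subunits differed by -0.20 to -0.04, but further ones of Mcm3 and Mcm5 each gave 0.05. Of the 33 further probe sets 18 had the sign of the one used.

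The array of ritonavir with DMSO was set against ethanol across the experiments, so that experiment, DMSO and ritonavir cannot be told apart in it. The median of the 41 genes was -0.41, near the -0.38 of ritonavir alone, and again 38 of 41 lay below 0 and 3 above, beside 47.9% and 52% of detected genes. At least 2-fold lower were 3, Tk1 at -1.48, Uhrf1 at -1.24 and Cdt1 at -1.11, or 7.32% beside 2.99% of detected genes, and 0 were 2-fold higher, beside 1.52%. A second probe set of Cdt1 gave -1.14, but that of Uhrf1 gave -0.63. Of the 33 further probe sets 24 had the sign of the one used. With the mean of each gene's probe sets, 1 was 2-fold lower, again with no share of all detected genes computed. Of the adipocyte markers 5 of 10 were at least 2-fold lower here, with a median of -0.96, and the preadipocyte and fibroblast markers had a median of -0.34; their part was not tested. Both comparisons subtract the same ethanol array. By roles, the MCM subunits had a median of -0.60 with ritonavir and DMSO and -0.47 with ritonavir alone, primase and polymerases -0.40 and -0.24, and nucleotide synthesis genes -0.55 and -0.99.

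**Figure D3:**
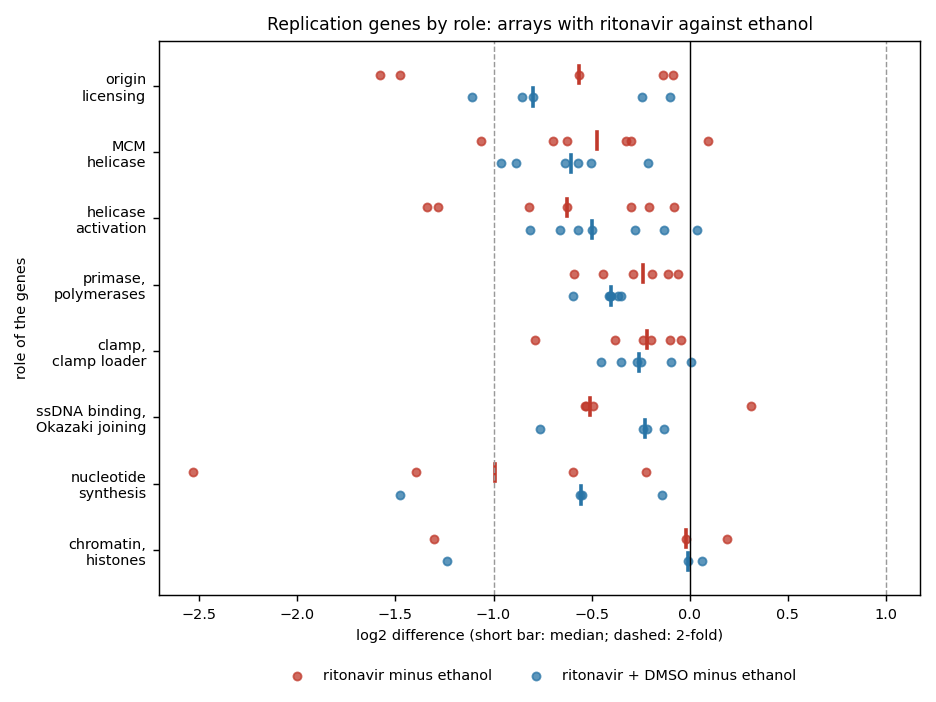
Log2 difference from the ethanol array (horizontal axis) of the detected replication genes, grouped by role, for ritonavir (red, upper row of each role) and for ritonavir with DMSO (blue, lower row). Each point is a gene, a short bar is the median of the role and dashed lines mark 2-fold; nucleotide synthesis has medians of -0.99 and -0.55, and primase and polymerases -0.24 and -0.40.

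Set directly against ritonavir alone, the array of ritonavir with DMSO had a median difference of only 0.04 over the 41 genes, with 23 above and 18 below 0, beside 50.9% and 49.1% of detected genes. The robust SD over all detected genes was 0.314. By role, the counts above and below 0 differed. All 4 nucleotide synthesis genes were higher with DMSO, Tk1 by 1.05 and Rrm2 by 0.84, and so were 6 of 7 helicase activation genes, with Gins1 at 0.68 and Cdc45 at 0.47. Cdc6 and Gmnn were higher by 0.78 and 0.62. On the other side, 4 of 6 MCM subunits were lower with DMSO, with Mcm4 at -0.34, Mcm2 at -0.30 and Mcm6 at -0.26, as were 5 of 6 primase and polymerase genes, with Pold1 at -0.36 and Pola1 at -0.29. Cdt1 and Rpa1 differed by -0.54 and -0.44. The sign of the one used was shared by 26 of the 33 further probe sets. Second probe sets of Prim2 and Dut gave 0.04 and -0.10, against -0.06 and 0.09 on those used. Tk1 alone passed 2-fold upward, 1 of 41 beside 2.83% of detected genes, and 0 were 2-fold lower, beside 2.07%. In the same comparison the 10 adipocyte markers had a median of 3.12 and the preadipocyte and fibroblast markers one of -1.45; their part was not tested. DMSO was recorded in the second experiment only, so vehicle and experiment cannot be told apart.

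Over all 6 arrays, 33 of the 41 genes, 80.5%, had each of the 4 values with ritonavir below both values without, as did 22.6% of detected genes, and 0 had them all above, as did 28.6%. The 4 arrays differ in co-treatment and experiment and are not replicates. The 8 genes that overlapped were Orc1, Mcm2, Gins2, Rfc1, Rfc5, Rpa1, Chaf1b and Slbp. The lowest of the 6 values lay on the ritonavir array for 19 genes and on that of ritonavir with DMSO for 15. The highest lay on ethanol for 23 and on tenofovir for 13. The same counts were not made over all detected genes, so these have no background beside them.

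With c9,t11-CLA nearly all replication genes were slightly higher than with DMSO, in cells that all received ritonavir. The median difference was 0.26, against 0.01 for all detected genes with a robust SD of 0.136, and 39 of 41 genes were above 0 and 2 below, beside 52.3% and 47.6%. Of the 41, 0 were 2-fold higher and 0 lower, beside 0% and 0.00807% of detected genes. The largest differences were those of Mcm6 at 0.54, Cdc45 at 0.54 and Cdc6 at 0.49, followed by Uhrf1 at 0.44, Rrm2 at 0.43 and Tk1 at 0.42. Mcm6 had 10.47 with c9,t11-CLA, 10.17 with t10,c12-CLA and 9.92 with DMSO, against 10.70 with tenofovir and 10.80 with ethanol, so that its value with c9,t11-CLA still lay below both arrays without ritonavir. The exceptions on the probe sets used were the clamp loader subunit Rfc3 at -0.32 and Dut at -0.14. A second probe set of Rfc3 gave -0.17, but one of Dut gave 0.30. Probe sets agreed less here: of the 33 further ones 22 had the sign of the one used, and a second probe set of Cdc45 gave -0.06 and one of Mcm6 0.20.

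With t10,c12-CLA the genes were spread on both sides of DMSO. Their median difference was 0.04, with 23 above and 18 below 0, beside 52.8% and 47.1% of detected genes, and 0 of 41 were 2-fold apart, beside 0.783% of detected genes higher and 1.05% lower. On the probe sets used, 6 of 6 MCM subunits were above DMSO, between 0.01 and 0.25, as were 5 of 6 primase and polymerase genes, with Pold1 at 0.32, Pola2 at 0.30 and Pola1 at 0.29. Dbf4 differed by 0.36 and Cdt1 by 0.34. Below DMSO lay Cdc6 at -0.48, Rfc4 at -0.43, Tk1 at -0.29, Gins1 at -0.26 and Rpa2 at -0.23. All 4 nucleotide synthesis genes did so on the probe sets used, though a second one of Dut gave 0.09. Of the 33 further probe sets 18 had the sign of the one used. Further probe sets of Mcm7 gave -0.07, -0.30 and -0.47, one of Mcm4 -0.27, one of Mcm6 -0.07, and those of Prim1 and Prim2 -0.24 and -0.19. Further detected ones of Mcm3 gave -0.11, 0.13 and 0.29. The direction for these genes thus depends on the probe set. Adipocyte markers had a median of -1.32 in this comparison and of 0.18 with c9,t11-CLA; their part was not tested.

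**Figure D4:**
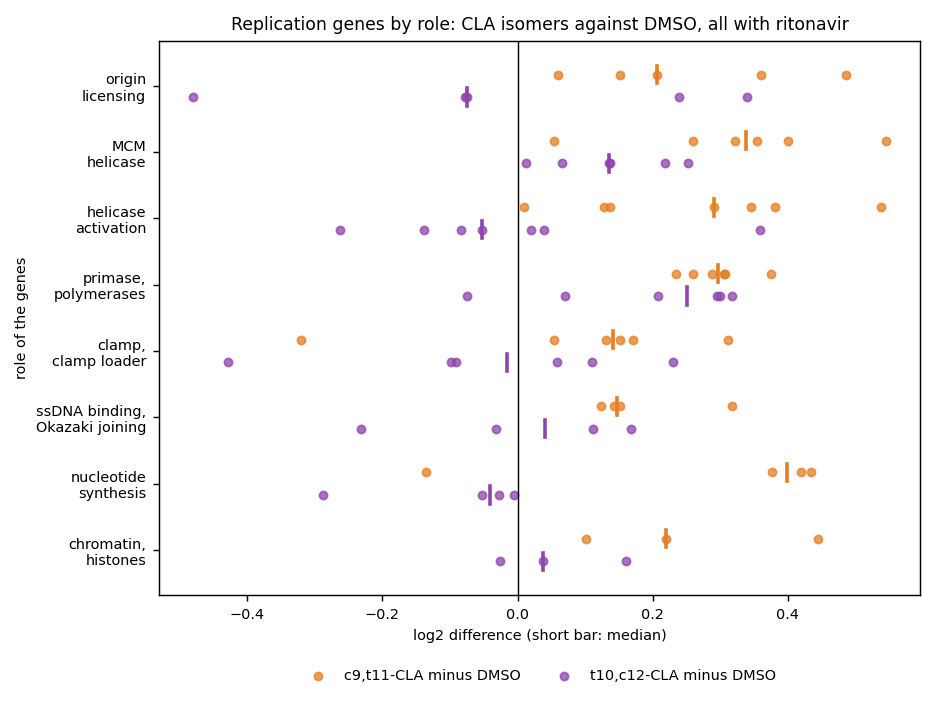
Log2 difference from the array of ritonavir with DMSO (horizontal axis) of the detected replication genes, grouped by role, for c9,t11-CLA (orange, upper row of each role) and t10,c12-CLA (purple, lower row), both with ritonavir. Each point is a gene and a short bar the median of the role; 39 of 41 points lie above 0 with c9,t11-CLA and 23 with t10,c12-CLA.

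The isomers differ in where their conjugated double bonds lie and in which of them is cis. At the same dose of 100 µM and the same 5 days, this 1 pair of compounds could be compared directly, with 1 array each and so with no error or interval. With t10,c12-CLA the genes had a median log2 difference of -0.21 from c9,t11-CLA, where that of all detected genes was 0.01, and 32 of 41 were below 0 and 9 above, beside 48.1% and 51.8%. The difference was -0.97 for Cdc6, -0.71 for Tk1, -0.68 for Cdc45, -0.64 for Gins1, -0.48 for Rfc4 and -0.45 for Pole. It was close to 0 for Cdt1 at -0.02, Pola2 at -0.01, Mcm2 at 0.01 and Pold1 at 0.01, and 0.22 for Rfc3. None of the 41 was 2-fold apart, beside 1.53% of detected genes lower and 0.953% higher. The value with c9,t11-CLA lay above both other arrays of that experiment for 32 of 41 genes, 78.0%, as it did for 30.5% of detected genes. Here 28 of the 33 further probe sets had the sign of the one used, although the second probe set of Cdc45 gave only -0.06. In the same comparison 7 of 10 adipocyte markers were at least 2-fold lower, with a median of -1.62, and 9 of 10 preadipocyte and fibroblast markers were above 0, with a median of 0.40; their part was not tested.

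The wider S-phase program was read from 40 further replication factors, of which 39 were detected. With ritonavir 7 of 39 were at least 2-fold lower than with ethanol, 17.9% beside 6.39% of detected genes, and 0 were 2-fold higher, beside 4.56%. Their median was -0.25, with 29 below 0 and 10 above, beside 49.8% and 50.2% of detected genes. Asf1b, a histone chaperone of dividing cells, had 9.09 with ritonavir, 11.36 with tenofovir and 11.38 with ethanol, a difference of -2.29 from ethanol. Pold4, a small polymerase delta subunit, and Pclaf, a PCNA-binding protein, differed by -1.55 and -1.52. The largest differences among the 10 above 0 were those of Rrm2b at 0.76 and the origin recognition subunits Orc4 at 0.64 and Orc2 at 0.34. With t10,c12-CLA against DMSO the 39 genes had a median of -0.04, from Dscc1, part of an alternative clamp loader, at -0.50 and the nucleoside kinase Dck at -0.46 to Rnaseh2b, a ribonuclease subunit, at 0.30.

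Genes that govern entry into S phase were read from a further list. Of 31 detected, 7 lay 2-fold or more below ethanol with ritonavir, beside 6.39% of detected genes, and 2 lay as far above, beside 4.56%, with a median of -0.27. The repressor E2f7 differed by -2.52, cyclin A2 (Ccna2) by -2.28 and the CDK4 and CDK6 inhibitor Cdkn2c by -2.94, while cyclin D1 (Ccnd1) was higher by 2.05 and the inhibitors Cdkn2b and Cdkn2a by 1.36 and 0.90. On the ritonavir array E2f7 was below the level for detection, at 6.19. With t10,c12-CLA against DMSO, Ccnd1 differed by 1.40, Cdkn2c by -1.10 and cyclin E2 (Ccne2) by -0.98.

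Mitotic genes, which act after replication, were set beside these as a related group. All 27 detected were at least 2-fold lower with ritonavir than with ethanol, beside 6.39% of detected genes, with a median of -2.10 against -0.38 for the replication genes. With ritonavir and DMSO 12 of 27 were 2-fold lower than ethanol, beside 2.99%, with a median of -0.99 against -0.41. Between DMSO and ritonavir alone they had a median of 0.79, and 27 of 27 were higher with DMSO, beside 50.9%, while the replication genes had 23 of 41. With t10,c12-CLA against c9,t11-CLA the medians were -0.58 and -0.21. No test of the difference between the 2 groups of genes was made.

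**Figure D5:**
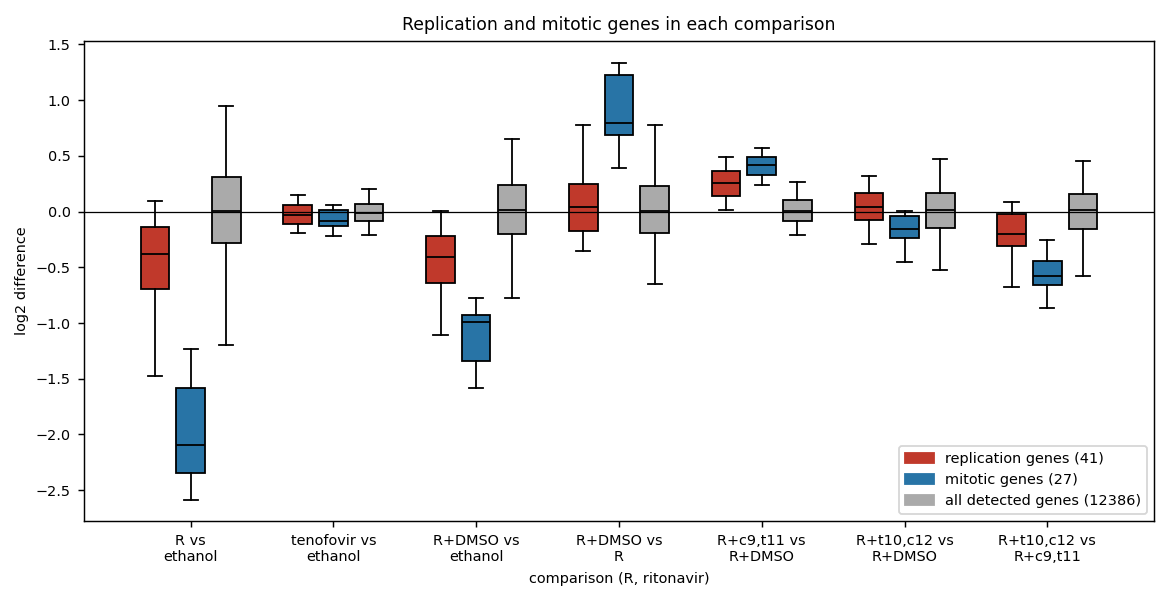
Log2 differences (vertical axis, first-named array minus second) in the 7 comparisons (horizontal axis) for the 41 replication genes (red), 27 mitotic genes (blue) and 12386 detected genes (grey). Boxes give the median and quartiles and whiskers the 5th and 95th percentiles of genes; the red median is -0.38 and the blue -2.10 for ritonavir against ethanol, and 0.26 and 0.42 for c9,t11-CLA against DMSO.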

How the data were processed

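Per the labels' protocols, RNA from 4 replicate experiments was pooled and labelled with biotin, and each group's pool was hybridised to an Affymetrix mouse array. The authors deposited log2 values of 45101 probe sets; the submitters' processing notes name RMA and Affymetrix Expression Console, without version or settings. Because RMA makes the arrays' distributions equal, a shift shared by most genes would be lost. Names came from the platform's annotation table: 34958 had 1 gene, 932 several and 9211 were not listed there, and only the first kind was used. From the deposited log2 values, differences between arrays were computed for 7 comparisons over all 12386 detected genes. With 1 array per group there was no test, and precision is limited by the 6 arrays. "At least 2-fold" means a log2 difference of 1 or more either way, and "beside" gives the share of all detected genes past the same bound. The robust SD is the scaled median absolute deviation.

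The members and gene lists were chosen with earlier results of these data known. Beyond the members, the genes named are, of each list, up to 3 with the largest difference upward and 3 downward for ritonavir against ethanol and for t10,c12-CLA against DMSO, and 10 with the most similar profile. Rrm2b is named by the same rule. The alternatives tried were averaging a gene's probe sets, probe sets without cross-hybridisation suffixes, no detection level or one at 8.77, values raised to the level, quantile normalization again, lowess correction (span 0.3) for the trend with expression level, bounds of 1.5-fold and 3-fold, and the mean of the ethanol and tenofovir arrays. Counting was tested on simulated data. Promoter windows came from RefSeq on GRCm38.p6; 35 of the 43 genes matched by symbol, and a gene with several starts counted as holding a motif if any window did. Python 3.11.15 with numpy 2.4.6, pandas 2.3.3, statsmodels 0.14.6 and matplotlib 3.10.9 was used.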

Additional observations from a re-analysis of the deposited data

How the results depend on the processing

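Of 86 alternative values for the medians and counts of the replication genes, 78 stayed within the bounds set for a change, which were 0.113 for a median and 1.5 times for a count. The 78 include the values raised to the level for detection, which could not differ. Of the values of the detected replication genes, 0 lay under that level. Leaving out the level added only Tyms. The median for ritonavir against ethanol ran from -0.44 to -0.30, that for ritonavir with DMSO against ethanol from -0.47 to -0.31, that for c9,t11-CLA against DMSO from 0.18 to 0.29 and that between the isomers from -0.21 to -0.19. The medians of tenofovir against ethanol and of t10,c12-CLA against DMSO took both signs, from -0.04 to 0.01 and from -0.01 to 0.07. The counts that moved did so with the fold bound and the probe sets. Genes lower with ritonavir than with ethanol numbered 8 at 2-fold, 15 at 1.5-fold and 1 at 3-fold, and 4 with the mean of all probe sets. Those lower with ritonavir and DMSO numbered 3, 12, 0 and 1 in the same order. Those higher with ritonavir and DMSO than with ritonavir alone numbered 1, 5 at 1.5-fold and 0 at 3-fold. Genes with all 4 values with ritonavir below the 2 without numbered 33 of 41. Under the alternatives they numbered 24 of 35 with probe sets free of a cross-hybridisation suffix, 29 of 35 at the stricter level for detection, 29 of 40 with the mean of probe sets, 33 of 42 with no level and 33 of 41 otherwise. The share of all detected genes was computed at 2-fold and with the main settings only. The counts at other bounds or settings therefore have no background beside them. No paired analysis was possible because each group has 1 array and the labels give no replicate numbers. Leaving out a replicate was likewise not possible.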

Other observations

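The genes outside the list whose values over the 6 arrays most resembled the median profile of the replication genes were sought by the root mean square distance of values taken relative to each gene's mean. The nearest was Fanci, a gene of the Fanconi anaemia pathway of DNA crosslink repair, at a distance of 0.017, with log2 values of 7.40 on the ritonavir array, 7.82 on tenofovir and 7.80 on ethanol, and 7.64, 7.47 and 7.40 with c9,t11-CLA, t10,c12-CLA and DMSO. The other 9 were Apba3, Ppp1r18, Arhgap9, Eml3, Mmp9, Tmem43, Trp53i13, Pklr and Lhx3, at distances between 0.024 and 0.036. Nearness here describes 6 values per gene, and Mmp9 passed the level for detection on the tenofovir and ethanol arrays only.

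The 12 detected replication genes with E2F letters in their promoter window had a median difference of -0.55 for ritonavir against ethanol. At least 2-fold lower were 3 of 12, beside 6.39% of all detected genes. For the 21 genes with a window without these letters the median was -0.38, and 3 of 21 were 2-fold lower, among them Tk1, beside the same 6.39%. With ritonavir and DMSO the medians against ethanol were -0.67 and -0.27. With c9,t11-CLA against DMSO they were 0.34 and 0.17, and with t10,c12-CLA against DMSO 0.14 and -0.01. The 8 genes without a window in the table are not in these medians, and no test was made.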
